A study of Mus musculus with 16 samples.

Results

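The circadian clock genes described here are 10 protein-coding genes, *Arntl*, *Clock*, *Per1*, *Per2*, *Per3*, *Cry1*, *Cry2*, *Nr1d1*, *Nr1d2* and *Dbp*. They were taken by gene symbol from the 54347 genes in the table of counts, and all 10 were among the 13150 genes with enough counts to be tested. Their transcripts were measured by polyadenylated RNA sequencing in wt1-SAM cells, immortalized mouse brown preadipocytes with a stable integration of CRISPRa SAM, in which a catalytically dead Cas9 joined to activator proteins raises transcription where a single guide RNA (sgRNA) directs it. All cultures were differentiated with a cocktail that held rosiglitazone, T3, dexamethasone, insulin, indomethacine and IBMX, received 250 ng of plasmid by reverse transfection on day 4 and were harvested on day 7. Empty vector cells received the sgRNA backbone without a guide, and sgRNA cells received a pair of vectors with guides against the long noncoding RNA gene *Gm15551*. Cultures with either plasmid served as control or were stimulated for 24 h with isoproterenol at 1 µM, which activates β-adrenergic receptors. Each of the 4 groups held 4 libraries, numbered replicate 3, 4, 5 and 6, which made 16 in all. Every group came from the same line, and neither the labels nor the methods gave the clock hour of harvest or a step to synchronize the cells. The labels did not say that the numbered cultures were independent, so p-values measure the spread between these libraries, which may in part be technical.

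The mammalian clock is a feedback loop of transcription. The proteins of *Clock* and *Arntl* (BMAL1) bind DNA as a pair and activate genes with an E-box, among them the *Per* and *Cry* genes, whose proteins then enter the nucleus and repress that pair. The nuclear receptors REV-ERBα and REV-ERBβ, encoded by *Nr1d1* and *Nr1d2*, repress *Arntl*, and DBP is an output factor that activates genes with a D-box. *Per1* is also known as a gene that cyclic AMP signalling can induce through CREB, and β-adrenergic receptors raise cyclic AMP in brown adipocytes, where REV-ERBα is a known repressor of thermogenic genes.

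Sequence upstream of the annotated start was available from RefSeq (GRCm38.p6) for 9 of the 10 genes, in 13 windows that span 250 bases before to 50 bases after a start. *Per2* was not among them. The windows were searched on both strands for the E-box CACGTG, the full cyclic AMP response element TGACGTCA, its shorter core TGACG, the D-box TTATGTAA or TTACGTAA, and the core of the ROR and REV-ERB element, TAGGTCA or AAGGTCA. The short core lies within the full element. The 250 upstream bases are shown for *Per1*, which has 2 starts, and for *Cry2* and *Per3*, because *Per1* and *Cry2* are the members with the clearest isoproterenol differences below and *Per3* is the 1 member of the 9 searched with a D-box in these windows. They are written 5′ to 3′ on the strand of the gene, with motif matches in capitals.
*Per1*, first start, plus strand, chr11:69098699-69098948: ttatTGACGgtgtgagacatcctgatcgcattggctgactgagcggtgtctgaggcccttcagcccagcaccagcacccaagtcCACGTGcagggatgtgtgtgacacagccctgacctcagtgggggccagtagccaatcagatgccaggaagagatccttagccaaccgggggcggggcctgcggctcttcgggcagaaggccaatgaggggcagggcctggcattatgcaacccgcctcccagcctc
*Per1*, second start, plus strand, chr11:69099902-69100151: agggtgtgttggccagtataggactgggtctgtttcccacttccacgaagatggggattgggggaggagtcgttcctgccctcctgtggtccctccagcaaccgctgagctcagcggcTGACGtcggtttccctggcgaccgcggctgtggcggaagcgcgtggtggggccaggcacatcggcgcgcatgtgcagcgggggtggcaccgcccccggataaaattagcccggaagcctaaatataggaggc
*Cry2*, minus strand, chr2:92434070-92434319: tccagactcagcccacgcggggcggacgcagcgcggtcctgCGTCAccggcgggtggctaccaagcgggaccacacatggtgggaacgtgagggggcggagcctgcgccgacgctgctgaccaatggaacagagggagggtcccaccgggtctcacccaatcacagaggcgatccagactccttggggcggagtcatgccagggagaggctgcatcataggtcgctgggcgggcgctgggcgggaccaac
*Per3*, minus strand, chr4:151044666-151044915: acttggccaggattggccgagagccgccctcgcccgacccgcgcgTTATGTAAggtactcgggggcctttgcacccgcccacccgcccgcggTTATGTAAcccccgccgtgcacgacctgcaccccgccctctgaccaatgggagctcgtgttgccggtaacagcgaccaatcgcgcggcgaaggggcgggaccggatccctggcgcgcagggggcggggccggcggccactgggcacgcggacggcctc
The first *Per1* window held an E-box beginning 166 bases before the start and a short core 246 bases before it, and the second held a short core 132 bases before its start. The *Cry2* window held a short core, on the other strand, 209 bases before the start. In *Per3* there were D-boxes 205 and 158 bases before the start. Of the windows not shown, *Cry1* held an E-box 60 bases and a short core 8 bases before its start, and 1 of the *Arntl* windows held the ROR and REV-ERB core 30 bases after the start. No match was found in the windows of *Clock*, *Nr1d1*, *Nr1d2* and *Dbp*, and no full cyclic AMP response element in any of the 13. Among 32817 windows of the same length, 7.15% held the E-box, 1.79% the full element, 20.8% the short core, 1.05% a D-box and 7.17% the ROR and REV-ERB core. A match describes these letters and is not evidence of a bound site.

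Total estimated counts per library ranged from 9053521 to 16546187. A ribosomal RNA gene took 11.7% to 51.8% of them, which left 5900607 to 12959314 counts for all other genes. Levels are given in CPM, counts per 1000000 of the library size after TMM scaling. On this scale 1 count was worth between 0.0553 and 0.130 CPM. No 2 libraries agreed within counting noise in 120 pairs. The targeted gene followed the labels in its group means, with *Gm15551* at 0.952 ± 0.405 CPM in empty vector control, 0.147 ± 0.199 in empty vector isoproterenol, 2.97 ± 1.08 in sgRNA control and 1.56 ± 0.420 in sgRNA isoproterenol cells (SD, n = 4), and it was higher in sgRNA cells in every number and treatment. Its log2 difference was 2.37 (SE 0.39, adjusted p = 0.0989 by edgeR) and, in a fit blocked on replicate number, 2.41 (SE 0.28, adjusted p = 0.00055). Adipocyte transcripts were abundant, with means over the 16 libraries of 14462 CPM for *Fabp4* and 579.8 CPM for *Adipoq*, and the 7 brown adipocyte markers were uneven, with *Elovl3* at 267 CPM, *Ppargc1a* at 51.9, *Ebf2* at 15.3, *Ucp1* at 4.17, *Cidea* at 4.07 and *Prdm16* at 1.14, and *Dio2* at 0 in 15 libraries. *Mki67*, a marker of dividing cells, had a mean of 159.9 CPM. The macrophage gene *Adgre1* reached at most 1 count in any library and the endothelial gene *Cdh5* at most 4, whereas *Cd68* of the macrophage list (mean 14.1 CPM) and *Pecam1* of the endothelial list (2.26 CPM) were detected in all 16.

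The 10 genes covered a wide range of levels in these cells. *Clock* was the most abundant member both in CPM and per kilobase of exon, and *Per3* was the least abundant by both. The levels that follow are CPM per kilobase of annotated exon, as mean ± SD over all 16 libraries, with gene positions on GRCm38. *Clock* (ENSMUSG00000029238, chr5:76209868-76304792, minus strand) stood at 8.69 ± 0.806. The next level was that of *Nr1d2* (ENSMUSG00000021775, chr14:18204054-18239127, minus strand), with 4.64 ± 0.635, and it did not stand apart from *Per1* (ENSMUSG00000020893, chr11:69095217-69109960, plus strand), with 4.46 ± 1.02, or from *Cry1* (ENSMUSG00000020038, chr10:85131700-85185064, minus strand), with 4.41 ± 0.571. *Nr1d1* (ENSMUSG00000020889, chr11:98767932-98775333, minus strand) followed at 3.46 ± 0.744, with a range that overlapped those of its neighbours above. Lower again, and again within their spread of each other, lay *Arntl* (ENSMUSG00000055116, chr7:113207465-113314126, plus strand) at 1.76 ± 0.173 and *Dbp* (ENSMUSG00000059824, chr7:45705088-45710203, plus strand) at 1.73 ± 0.281. *Per2* (ENSMUSG00000055866, chr1:91415982-91459324, minus strand) had 1.34 ± 0.346, *Cry2* (ENSMUSG00000068742, chr2:92403646-92434043, minus strand) 0.985 ± 0.186 and *Per3* (ENSMUSG00000028957, chr4:151003652-151044665, minus strand) 0.485 ± 0.108. The ranges of *Per2* and *Cry2* overlapped, from 0.865 to 1.93 and from 0.622 to 1.23, and that of *Per3*, from 0.292 to 0.649, reached just into that of *Cry2*. In raw counts the members ranged from 31 to 76 per library for *Per3* and 32 to 97 for *Dbp* up to 894 to 2158 for *Clock*, so the low members carry more counting error. Exons of *Nr1d1* share 263 bases, 8.55% of their length, with *Thra* on the opposite strand. *Dbp* shares 539 bases (18%) with *Sphk2* and *Cry2* shares 295 (4.67%) with D930015M05Rik, also on opposite strands. Since the use of read strand was not stated, reads in these stretches cannot be assigned to 1 gene.

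**Figure D1:**
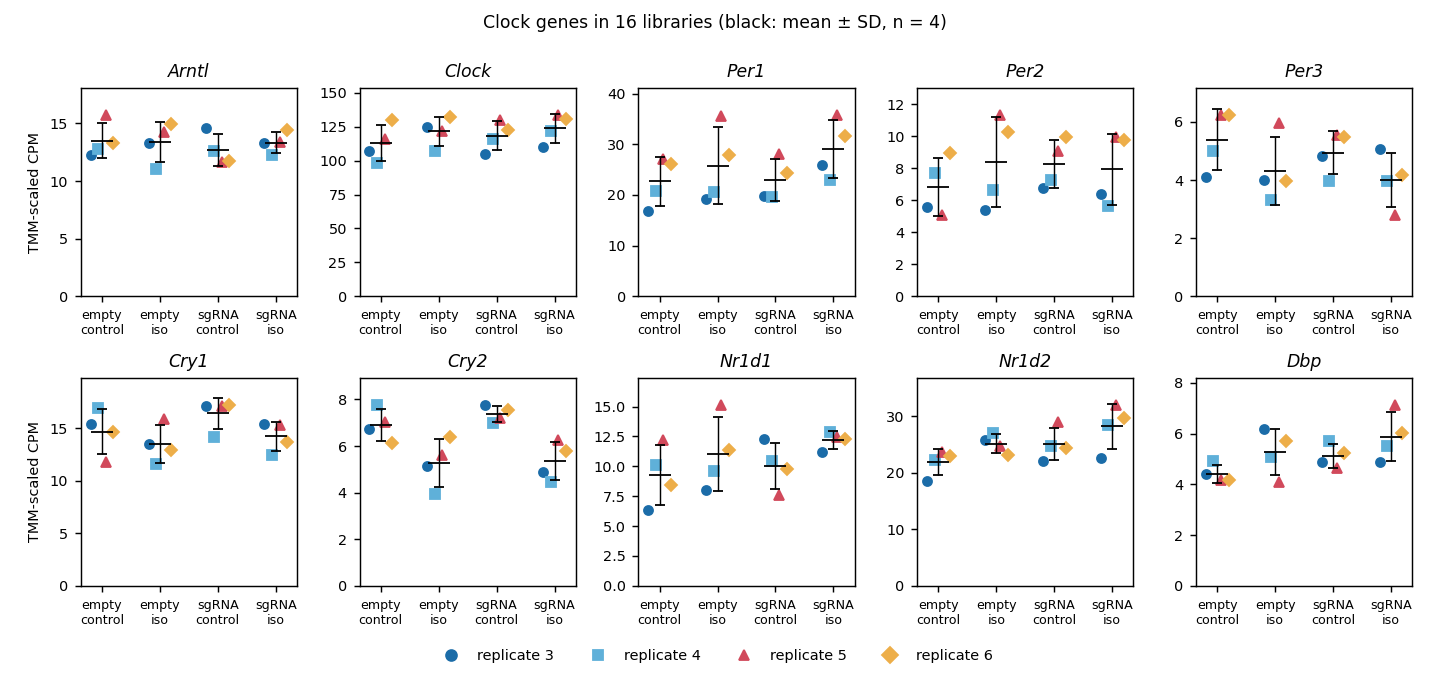
TMM-scaled CPM (y axis, from 0, 1 panel per gene) of the 10 clock genes in the 4 groups of plasmid and treatment (x axis, iso for isoproterenol). Each point is 1 library, coloured and shaped by replicate number, and black bars are the mean ± SD of 4 libraries. *Cry2* is lower in the isoproterenol groups, and the *Per1* points of replicates 5 and 6 lie above those of 3 and 4 in all 4 groups.

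The first comparison asked which clock genes differed between isoproterenol and control cultures, averaged over both plasmids. *Cry2* was lower with isoproterenol and was the only member past an adjusted p of 0.05 by the edgeR quasi-likelihood test on the group means (1 of 10, against 4.49% of all tested genes). No member was called, that is, also passed a size of 0.5 on the log2 scale (0 of 10, against 2.65%, and by DESeq2 0 of 10, against 465 of all genes). An unadjusted p under 0.05 was found for 2 of 10 members and 2330 of all 13150 genes. With the replicate number as a block, which pairs control and isoproterenol libraries of the same number, *Per1* and *Nr1d2* passed an adjusted p of 0.05 as well, both higher with isoproterenol (3 of 10, against 21.3%), and again none passed the size limit (0 of 10, against 5.7%). The median log2 difference of the 10 members was 0.10 in the fit of group means, beside 0.0047 for all 13150 genes, and 7 of the 10 were above 0. Effects below are log2 differences, isoproterenol minus control, with adjusted p-values from edgeR.

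*Cry2*, a cryptochrome and thus a repressor of the loop, had 6.74, 7.75, 7.01 and 6.13 CPM in replicates 3, 4, 5 and 6 of empty vector control cells and 5.15, 3.93, 5.60 and 6.39 CPM with isoproterenol. In sgRNA cells the values were 7.77, 6.99, 7.19 and 7.52 CPM in control and 4.89, 4.47, 6.25 and 5.79 CPM with isoproterenol. The isoproterenol library was the lower one in 7 of 8 pairs of the same plasmid and number, the exception being replicate 6 of the empty vector cells, through which the ranges of the treatments overlapped. In sgRNA cells the ranges did not overlap. Over both plasmids *Cry2* fell from 7.14 ± 0.553 to 5.31 ± 0.860 CPM (SD, n = 8), with a log2 difference of -0.43 (SE 0.11, 95% interval -0.67 to -0.19, adjusted p = 0.0426 by edgeR) and, with the block, of -0.45 (SE 0.11, adjusted p = 0.00718). By size this lay at the 88.5th percentile of all tested genes. The result without the block was close to the threshold of 0.05, and it was lost without the filter on low counts (-0.46, adjusted p = 0.141). Among omissions of a single library it remained only when the library left out was the isoproterenol library of replicate 5 of either plasmid, or the control or isoproterenol library of replicate 6 of the empty vector cells, with adjusted p up to 0.0907 for the 12 others. Of whole numbers, it remained without replicate 6 (log2 difference -0.54, adjusted p = 0.0471) and was lost without replicate 3 (-0.40, adjusted p = 0.331), replicate 4 (-0.31, adjusted p = 0.294) or replicate 5 (-0.49, adjusted p = 0.0827). With the block it remained under each of 16 single omissions, and it was lost without replicate 3 (log2 difference -0.42, adjusted p = 0.0518) or replicate 4 (-0.31, adjusted p = 0.0892).

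Its paralog *Cry1* differed less. The empty vector control values were 15.4, 16.9, 11.8 and 14.6 CPM in replicates 3 to 6, and those with isoproterenol 13.5, 11.6, 15.9 and 12.95 CPM. In sgRNA cells there were 17.1, 14.2, 17.1 and 17.3 CPM in control and 15.5, 12.5, 15.3 and 13.7 CPM with isoproterenol. The isoproterenol value was the lower in 7 of 8 pairs, all but replicate 5 of the empty vector cells, and the treatments overlapped. The log2 difference was -0.17 (SE 0.09, adjusted p = 0.354) and, with the block, -0.18 (SE 0.08, adjusted p = 0.133), so it did not pass the test.

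*Per1*, a period gene and repressor of the loop, had 16.8, 20.8, 27.0 and 26.1 CPM in replicates 3 to 6 of empty vector control cells and 19.2, 20.5, 35.6 and 27.8 CPM with isoproterenol. In sgRNA cells it had 19.7, 19.6, 28.1 and 24.3 CPM in control and 25.9, 22.9, 35.7 and 31.6 CPM with isoproterenol. Within a number the isoproterenol library was the higher in 7 of 8 pairs, and replicate 4 of the empty vector cells was the exception. Across numbers the treatments overlapped widely, with means of 22.8 ± 4.12 and 27.4 ± 6.46 CPM (SD, n = 8). The log2 difference was 0.26 (SE 0.15, adjusted p = 0.386) without the block and 0.25 (SE 0.06, 95% interval 0.12 to 0.38, adjusted p = 0.00787) with it. The blocked adjusted p stayed under 0.05 in 16 of 16 fits that left out a single library, but not without replicate 5 (0.21, adjusted p = 0.0614) or replicate 6 (0.25, adjusted p = 0.0531).

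*Per2* and *Per3*, the other period genes, did not pass the test. *Per2* had 5.60, 7.69, 5.06 and 8.93 CPM in replicates 3 to 6 of empty vector control cells, 5.41, 6.64, 11.3 and 10.3 CPM with isoproterenol, 6.79, 7.30, 9.06 and 9.96 CPM in sgRNA control cells and 6.40, 5.66, 9.93 and 9.74 CPM with isoproterenol. Its signs were mixed, with isoproterenol higher in 3 of 8 pairs, and the pair of replicate 5 in empty vector cells stood apart with a log2 difference of 1.14. The log2 difference over all libraries was 0.12 (SE 0.18, 95% interval -0.27 to 0.51), and it turned to -0.06 without replicate 5. *Per3* had 4.09, 4.99, 6.23 and 6.23 CPM in empty vector control cells, 3.99, 3.32, 5.98 and 3.95 CPM with isoproterenol, 4.83, 3.95, 5.54 and 5.47 CPM in sgRNA control cells and 5.06, 3.96, 2.80 and 4.17 CPM with isoproterenol. The isoproterenol value of *Per3* was the lower in 6 of 8 pairs. Its log2 difference was -0.32 (SE 0.16, 95% interval -0.65 to 0.02, adjusted p = 0.321) and -0.31 with the block (adjusted p = 0.151).

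The activators were close to level between treatments. *Clock* had 107, 98.6, 116 and 129.9 CPM in replicates 3 to 6 of empty vector control cells and 125, 107, 122 and 132 CPM with isoproterenol. In sgRNA cells it had 105, 116, 130.2 and 123 CPM in control and 109.9, 122, 134 and 131 CPM with isoproterenol. The isoproterenol library was the higher in 8 of 8 pairs, by between 0.03 and 0.22 on the log2 scale, and the treatments overlapped. The estimate was 0.09 (SE 0.07, adjusted p = 0.613) and 0.09 with the block (SE 0.05, adjusted p = 0.237), so this small and regular difference did not pass the test. *Arntl* had 12.3, 12.7, 15.7 and 13.3 CPM in empty vector control cells, 13.3, 11.01, 14.25 and 15.0 CPM with isoproterenol, 14.6, 12.6, 11.7 and 11.8 CPM in sgRNA control cells and 13.3, 12.2, 13.4 and 14.4 CPM with isoproterenol. It was higher with isoproterenol in 4 of 8 pairs, and its log2 difference of 0.03 had a 95% interval from -0.15 to 0.21.

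Of the REV-ERB genes, *Nr1d2* had 18.5, 22.2, 23.8 and 22.9 CPM in replicates 3 to 6 of empty vector control cells and 25.8, 27.1, 24.7 and 23.2 CPM with isoproterenol. In sgRNA cells it had 22.1, 24.7, 29.0 and 24.5 CPM in control and 22.7, 28.5, 32.0 and 29.7 CPM with isoproterenol. All 8 pairs were higher with isoproterenol, by 0.02 to 0.47 on the log2 scale, although the treatments overlapped. The log2 difference was 0.19 (SE 0.08, adjusted p = 0.251) without the block and 0.19 (SE 0.06, 95% interval 0.06 to 0.32, adjusted p = 0.0358) with it. That result was fragile. Its adjusted p stayed under 0.05 in only 5 of 16 fits that left out a single library, those without the isoproterenol library of replicate 3 or the control library of replicate 5 in sgRNA cells, or without the isoproterenol library of replicate 5 or either library of replicate 6 in empty vector cells. The same was true of 0 of 4 fits that left out a whole number, and the adjusted p reached 0.171 without replicate 4. *Nr1d1* had 6.38, 10.1, 12.2 and 8.41 CPM in empty vector control cells, 7.99, 9.57, 15.1 and 11.4 CPM with isoproterenol, 12.3, 10.4, 7.63 and 9.80 CPM in sgRNA control cells and 11.2, 12.9, 12.4 and 12.3 CPM with isoproterenol. It was higher with isoproterenol in 6 of 8 pairs. Its log2 difference of 0.27 (SE 0.15, 95% interval -0.05 to 0.58) was the highest of the 10 and did not pass the test (adjusted p = 0.378, and 0.201 with the block).

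*Dbp*, the output factor, had 4.39, 4.93, 4.16 and 4.15 CPM in replicates 3 to 6 of empty vector control cells and 6.18, 5.09, 4.07 and 5.72 CPM with isoproterenol. In sgRNA cells it had 4.90, 5.70, 4.64 and 5.24 CPM in control and 4.89, 5.49, 7.13 and 6.00 CPM with isoproterenol. Isoproterenol was higher in 5 of 8 pairs, and the treatments overlapped. The log2 difference was 0.23 (SE 0.12, 95% interval -0.02 to 0.47, adjusted p = 0.334), with an adjusted p of 0.188 in the blocked fit. Since whole cultures were measured, fewer cells of a type and less RNA per cell cannot be told apart. Beside these differences, the summed level of 8 adipocyte markers was 17241 to 28026 CPM in control and 13086 to 24715 CPM in isoproterenol libraries. All 8 estimates were below 0, and 2 of 8 were called lower without the block (against 2.65% of all genes) and 4 of 8 with it (against 5.7%), among them *Adipoq* (log2 difference -1.06, adjusted p = 0.00222 without the block). That of 5 macrophage markers, nearly all of it from *Cd68*, was 6.44 to 14.1 CPM in control and 13.6 to 22.5 CPM with isoproterenol, while the defining gene *Adgre1* was at 0 in 15 libraries. Of the brown adipocyte markers, 2 of 6 tested were called higher without the block (against 2.65%) and 3 of 6 with it (against 5.7%), among them *Ucp1* (log2 difference 4.03 without and 4.04 with the block). In both fits 4 of 6 were above 0, and *Ebf2* was lower past an adjusted p of 0.05 (-0.48). The smooth muscle markers *Acta2*, *Tagln* and *Myh11* were called lower in 3 of 3 tested with the block (against 5.7%), with a median log2 difference of -0.75, and in 0 of 3 without it (against 2.65%, median -0.77). The part of these levels in the results was not tested.

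**Figure D2:**
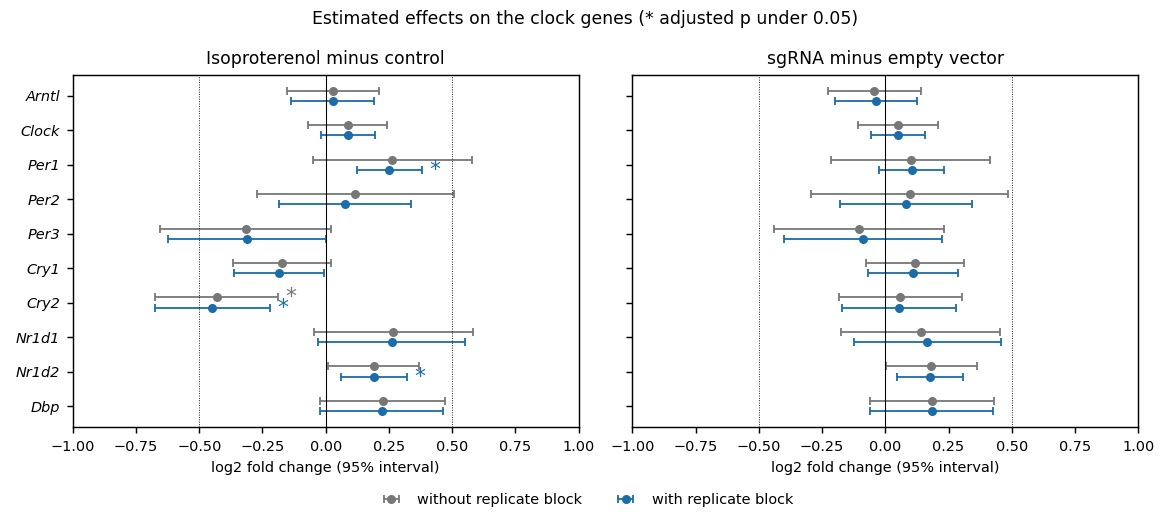
Log2 fold changes (x axis, points) with 95% intervals (bars) of the 10 clock genes (y axis) for isoproterenol minus control, left, and sgRNA minus empty vector, right, each averaged over the other factor, in the fits without (grey) and with (blue) the replicate block. Stars mark an adjusted p under 0.05 and dotted lines a log2 fold change of 0.5 in either direction. *Cry2* carries a star in both fits on the left, *Per1* and *Nr1d2* in the blocked fit only, and no gene carries one on the right.

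The isoproterenol effect was also tested within each plasmid. In empty vector cells no member passed an adjusted p of 0.05 without the block (0 of 10, against 0.913% of all genes) or with it (0 of 10, against 9.57%), and *Cry2*, with a log2 difference of -0.40 and an unadjusted p of 0.0269, had the smallest adjusted p without the block (0.401). In sgRNA cells no member passed without the block (0 of 10, against 0.722%), and 1 passed with it (1 of 10, against 8.4%). This was *Per1*, with a log2 difference of 0.33 (SE 0.08, adjusted p = 0.0207 by edgeR with the block), higher in 4 of 4 numbers. *Cry2* had -0.47 there (adjusted p = 0.0626 with the block). Whether the isoproterenol effect differed between plasmids was tested by the interaction. No member passed (0 of 10, against 0% of all genes), 0 of 10 had an unadjusted p under 0.05 (52 of all genes), DESeq2 gave 0, and the estimates ran from -0.36 (95% interval -1.14 to 0.42) for *Per2* to 0.15 (-0.48 to 0.78) for *Per1*. The *Per1* effect in sgRNA cells is therefore not shown to differ from empty vector cells.

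The second comparison, sgRNA against empty vector, asked whether the clock genes differed with activation of *Gm15551*. No member passed an adjusted p of 0.05 in the fit of group means (0 of 10, against 0% of all genes by edgeR) or with the block (0 of 10, against 0.586%), and DESeq2 gave 0 of 10 as well. Among all 13150 genes 437 had an unadjusted p under 0.05 in the fit of group means, and DESeq2 called 10. The member estimates without the block lay between -0.10 (95% interval -0.44 to 0.23) for *Per3* and 0.18 (-0.06 to 0.43) for *Dbp*, and 8 of 10 were above 0. Of the 10, *Nr1d2* alone had an unadjusted p under 0.05, 0.0463, with a log2 difference of 0.18 (SE 0.08), higher in sgRNA cells in 7 of 8 pairs. With the block its adjusted p was 0.271. Without the block *Clock*, with the narrowest interval, had a log2 difference of 0.05 (95% interval -0.11 to 0.21), and *Per2*, with the widest, 0.10 (-0.29 to 0.49). In the blocked fit *Clock*, again with the narrowest, had 0.05 (-0.06 to 0.16), and *Per3*, with the widest, -0.09 (-0.40 to 0.22). Differences within these intervals remain possible in each fit. The intervals are not adjusted for the 13150 genes tested, so larger differences could also fail to pass. That of *Nr1d2* without the block, 0.003 to 0.36, left out 0, and the gene did not pass an adjusted p of 0.05. The sgRNA control cells of *Cry1* had a low value in replicate 4, 14.2 CPM, against 17.1 to 17.3 CPM in the others. The share of ribosomal RNA was lower in sgRNA than in empty vector libraries in every number and treatment. In control libraries it was 17.8% to 20.2% with sgRNA and 19.7% to 47.3% with empty vector. With isoproterenol it was 11.7% to 28.7% with sgRNA and 22.1% to 51.8% with empty vector. The part of this share in the comparison was not tested.

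The third comparison was between replicate numbers, each of which occurred once in every group. *Per1* and *Per2* differed most among the members. An F-test of edgeR over the replicate terms gave an adjusted p under 0.05 for 4 of 10 members (against 54.7% of all genes) and, with a range of the fitted values over 0.5 on the log2 scale, for 2 of 10 (against 31.7%). Both shares lie below those of all genes, and the median range over the members was 0.25 beside 0.45 over all 13150 genes. The difference between these shares was not tested.

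*Per1* followed the numbers in every group. Its mean over the 4 groups was 20.4 ± 3.90 CPM in replicate 3, 21.0 ± 1.40 in replicate 4, 31.6 ± 4.70 in replicate 5 and 27.4 ± 3.10 in replicate 6 (SD, n = 4), and the values of 5 and 6 lay above those of 3 and 4 in 4 of 4 groups. The fitted range was 0.63 on the log2 scale (adjusted p = 5.11e-05), and the adjusted p stayed under 0.05 in all 20 fits that left out a library or a number. Without replicate 5 the range was 0.43, under the size limit. *Per2* had 6.05 ± 0.652, 6.82 ± 0.887, 8.84 ± 2.69 and 9.72 ± 0.569 CPM in replicates 3 to 6, with 5 and 6 above 3 and 4 in 3 of 4 groups. The exception was the empty vector control group, where replicate 5 had the lowest value of all 16, 5.06 CPM. Its fitted range was 0.67 (adjusted p = 0.0125), and the adjusted p was over 0.05 without replicate 3 (0.51, adjusted p = 0.0628) or replicate 6 (0.53, adjusted p = 0.140).

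*Clock* and *Nr1d2* passed the adjusted p with smaller ranges. *Clock* had 112 ± 9.15, 111 ± 10.3, 125 ± 7.97 and 129 ± 4.22 CPM in replicates 3 to 6, a fitted range of 0.22 (adjusted p = 0.026). The adjusted p was over 0.05 without the sgRNA isoproterenol library of replicate 3, the empty vector isoproterenol library of replicate 4 or either empty vector library of replicate 6, and without replicate 4, 5 or 6 as a whole, where the adjusted p rose to at most 0.126. It was also over 0.05 without the filter on low counts (0.16, adjusted p = 0.395). *Nr1d2* had 22.3 ± 2.96, 25.6 ± 2.77, 27.4 ± 3.85 and 25.1 ± 3.13 CPM, a fitted range of 0.31 (adjusted p = 0.0426), with an adjusted p under 0.05 in 6 of 16 single omissions and in 1 of 4 omissions of a number, that of replicate 6. Without replicate 3 its range was 0.13 (adjusted p = 0.298), and without the filter on low counts it was 0.28 (adjusted p = 0.141). The remaining 6 members did not pass. *Dbp* had the smallest fitted range of the 10, 0.08 (adjusted p = 0.949), with means of 5.09 ± 0.766, 5.30 ± 0.356, 5.00 ± 1.44 and 5.28 ± 0.813 CPM, and *Arntl* had 0.17 (adjusted p = 0.430). The fitted ranges of *Cry1* (0.16), *Cry2* (0.20), *Nr1d1* (0.29) and *Per3* (0.31) had adjusted p from 0.513 to 0.613.

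Other measures moved with the numbers. The summed level of 9 preadipocyte or fibroblast markers was 97.4 to 154 CPM in the libraries of replicate 6 and at most 79.8 in the others, that of 4 smooth muscle markers 19.2 to 34.1 against at most 12.98, and that of 4 markers of dividing cells 637 to 710.1 against 469.6 to 559. The summed level of 8 adipocyte markers was 13086 to 20730 CPM in replicate 6, 17017 to 24916 in replicate 5, 22064 to 28026 in replicate 4 and 23021 to 26638 in replicate 3. That of 7 brown adipocyte markers was 421 to 582 CPM in replicate 5, where *Per1* was highest, and at most 375 in the others. In the fibroblast list *Thy1* was at 0 in 9 libraries and *Dcn* in 4, and in the smooth muscle list *Cnn1* was at 0 in 4. The share of ribosomal RNA was 18.6% to 41.6% in replicate 3, 11.7% to 22.1% in replicate 4, 20.04% to 51.8% in replicate 5 and 19.7% to 31.7% in replicate 6. Its Pearson r with log2 CPM over the 16 libraries, after removal of group means, was 0.59 for *Per1*. It was 0.35 for *Clock*, 0.12 for *Per2* and 0.12 for *Nr1d2*. The part of these measures in the differences between numbers was not tested.

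The isoproterenol effect itself was also compared between numbers. No member passed (0 of 10, against 0.0076% of all genes, and 0 of 10 with an unadjusted p under 0.05, against 747 of all genes). The effect on *Per1* ran from 0.10 in replicate 4 to 0.37 in replicate 5 and that on *Nr1d2* from 0.11 in replicate 5 to 0.25 in replicate 3, so that both were above 0 in all 4 numbers. The same held for *Clock* (0.05 to 0.15) and *Nr1d1* (0.07 to 0.50), which did not pass the isoproterenol test in either fit. The effect on *Cry2* ran from -0.82 in replicate 4 to -0.17 in replicate 6. *Per2* had the widest spread, from -0.29 in replicate 4 to 0.57 in replicate 5 (adjusted p = 0.778 for the difference between numbers).

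**Figure D3:**
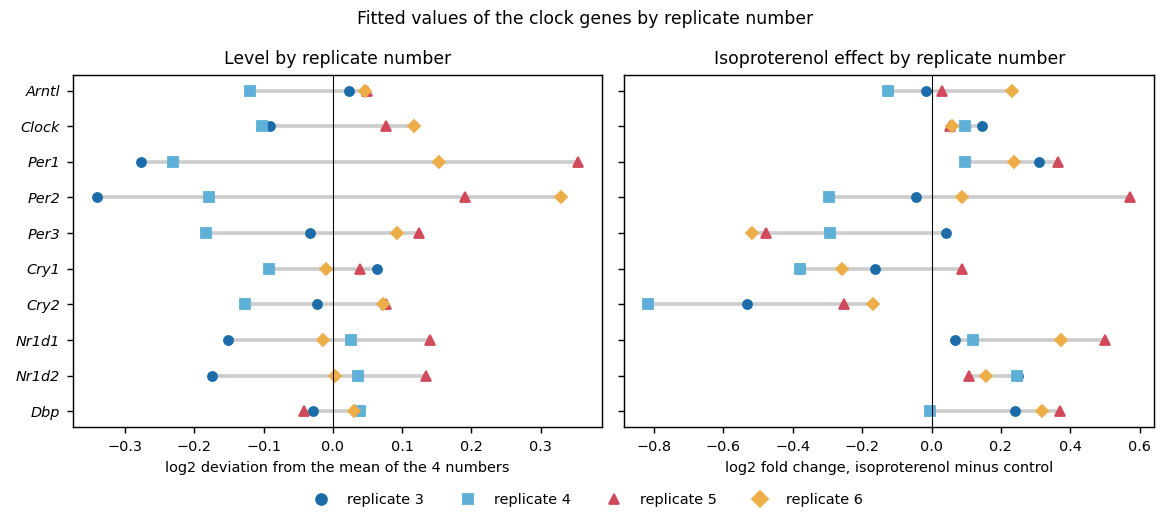
Fitted log2 values of the 10 clock genes (y axis) by replicate number (colours and shapes). The left x axis is the deviation of each number from the mean of the 4, and the right x axis is the isoproterenol effect within each number, with grey lines over the range. On the left the ranges of *Per1* (0.63) and *Per2* (0.67) are the widest and that of *Dbp* (0.08) the narrowest, and on the right *Cry2* lies below 0 in all 4 numbers.

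How the members varied together was described over the 16 libraries on log2 CPM minus the group mean, which leaves differences between numbers in place. The libraries share numbers and differ in depth, so these values are a description. Of 45 pairs of members, 30 had a Pearson r above 0, and the median was 0.24, which became -0.02 when number means were removed as well. The highest was between *Per1* and *Per2*, 0.76, which was 0.67 without the number means. With those means removed the highest was between *Per2* and *Cry1*, 0.90 against 0.49 with number means in place. *Arntl* and *Nr1d1*, the activator and its repressor, had 0.62 (0.81 without number means), and *Clock* and *Per1* had 0.60, which turned to -0.49. The lowest was between *Dbp* and *Per3*, -0.75 and -0.79 without number means. Both of these are low genes, with 31 to 97 counts per library. The share of ribosomal RNA had an r of 0.64 with *Per3* and of -0.33 with *Dbp*. With *Arntl* it had an r of 0.68 and with *Nr1d1* of 0.44. Its part in the relations within these pairs was not tested.

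**Figure D4:**
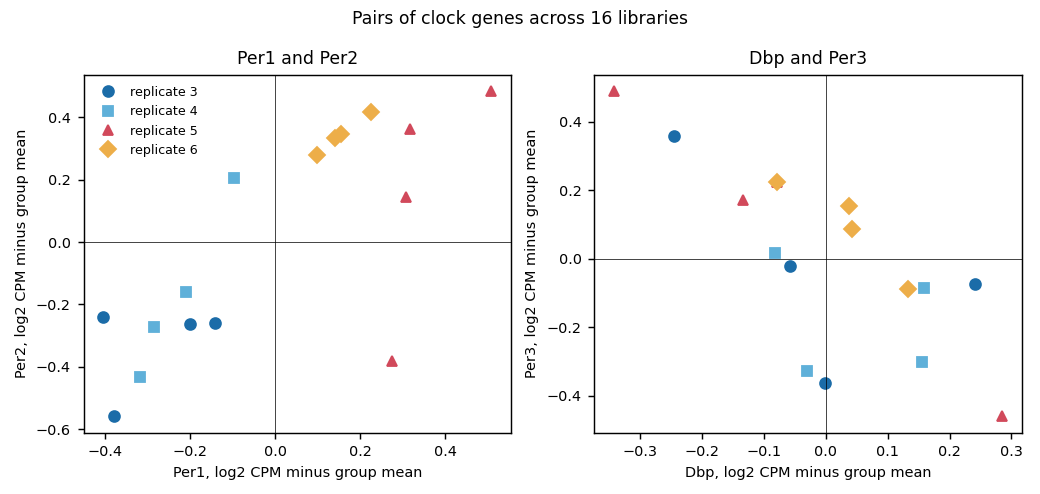
Log2 CPM minus the group mean in each of 16 libraries, for *Per1* (x axis) and *Per2* (y axis), left, and for *Dbp* (x axis) and *Per3* (y axis), right, with replicate numbers by colour and shape. On the left replicates 3 and 4 lie below replicates 5 and 6 in *Per1* (r = 0.76), and on the right high *Dbp* goes with low *Per3* (r = -0.75) with the numbers mixed.

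Among 12109 tested genes with a mean of at least 1 CPM, the patterns most like that of *Dbp* over the 16 libraries were those of *Zfp420* (r = 0.82), *Zmym1* (0.79), *Zfp781* (0.76), *Nprl3* (0.75) and *Mbtd1* (0.72). At the other end were *Rnf8* (-0.77), *Coq2* (-0.75), *Per3* (-0.75), *Pard3* (-0.75) and *Ccdc69* (-0.74). For *Arntl* the highest were *Fam222b* (0.85), A730017L22Rik (0.85), *Kat6a* (0.81), *Tmbim1* (0.79) and *Polr1b* (0.79), and the lowest *Dbr1* (-0.93), *Thumpd1* (-0.85), *Fgfr1op2* (-0.81), *Tpm2* (-0.81) and *Cfdp1* (-0.79). No clock gene was among the 5 most alike of either. The nearest to *Arntl* were *Cry2*, ranked 163 with an r of 0.63, and *Nr1d1*, ranked 189. The share of ribosomal RNA had an r of 0.68 with *Arntl* and of -0.33 with *Dbp*, and its part in these orders was not tested.

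Other genes of the clock were taken from a list of 23, of which 21 were tested (*Npas2* and *Fbxl21* had too few counts). For isoproterenol 0 of 21 passed an adjusted p of 0.05 in the fit of group means (against 4.49% of all genes). The median log2 difference was -0.04. With the block 3 were higher and 3 lower (6 of 21, against 21.3% of all genes). *Rorb*, a nuclear receptor that binds the same element as the REV-ERB proteins, rose by 1.21 (SE 0.11, adjusted p = 1.99e-06 with the block and 0.124 without it by edgeR). *Usp2*, a deubiquitinase that acts on clock proteins, had -0.53 (SE 0.17, adjusted p = 0.0402 with the block and 0.543 without it). The others past an adjusted p of 0.05 with the block were *Arntl2*, a paralog of *Arntl* (0.33), the kinase gene *Csnk1e* (0.24), *Nampt*, an enzyme of NAD synthesis (-0.31), and *Tef*, a relative of *Dbp* (-0.23). For sgRNA 0 of 21 passed in either fit (against 0% of all genes without the block and 0.586% with it). Between numbers 11 of 21 passed the adjusted p (against 54.7% of all genes) and 7 also the size limit of 0.5 (against 31.7%), shares near those of all genes. Among these were *Hlf*, another relative of *Dbp* (2.24), *Rorb* (2.10), *Usp2* (1.27), *Rora* (1.18) and the repressors *Bhlhe40* (0.97) and *Bhlhe41* (0.70), where *Hlf* and *Rora* had means under 1 CPM. *Tef* (0.49), *Cipc* (0.49), *Nfil3* (0.43) and *Nampt* (0.34) passed the adjusted p alone.

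A list of 12 genes known to respond to cyclic AMP, of which 10 were tested, gives the response of the same cultures on a known target of the agonist. In the fit of group means 5 of 10 were called (against 2.65% of all genes), each higher with isoproterenol, among them the nuclear receptor genes *Nr4a3* (2.90, adjusted p = 0.00714) and *Nr4a1* (2.24, adjusted p = 1.2e-05) and the phosphodiesterase gene *Pde4d* (1.35, adjusted p = 1.38e-05 by edgeR). With the block 6 of 10 were called (against 5.7%). The median log2 difference of this list was 0.86, beside 0.10 for the 10 clock genes and 0.0047 for all tested genes.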

How the data were processed

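Polyadenylated RNA of 16 libraries was sequenced in paired ends. The authors trimmed reads with cutadapt, quantified them with salmon against the GENCODE M22 transcripts (GRCm38), alone or joined with RNAcentral, and deposited estimated counts per gene, as whole numbers and not normalized. Software versions, use of strand and which of both references served this table are not given in the sources used here. Salmon divides reads that fit several transcripts, so values of near-identical genes are uncertain.

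Groups and replicate numbers came from sample titles. Counts were already whole. The software was edgeR 4.0.16 (R 4.3.3). Genes were kept by filterByExpr (minimum count 10, minimum total 15), libraries were scaled by TMM, and glmQLFit estimated the 4 group means from the 16 libraries together. Two-sided tests of contrasts used glmQLFTest, with Benjamini-Hochberg adjustment over 13150 genes. A gene counted as called at adjusted p under 0.05 with a log2 difference (or range between numbers) over 0.5 in size. CPM values are TMM-scaled, and log2 CPM used a prior count of 2. The precision is limited by 5900607 to 12959314 counts per library outside the ribosomal RNA gene.

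Libraries of the same number and another group correlated at 0.22 to 0.61 in their deviations from group means (24 pairs, each over 0.1, median 0.41). Those of another number and another group correlated at -0.51 to 0.52 (72 pairs, median -0.21), so the ranges overlapped. On this basis the numbers were taken to pair the libraries, and the blocked value is printed where a result crosses a threshold. The median biological coefficient of variation was 18.0% without and 9.96% with the block.

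Alternatives were RLE size factors, no filter on low counts, removal of the ribosomal RNA gene, DESeq2 1.42.0, the block, and omission of each library and each number. The omissions in the blocked fit were added after the data were seen. Members and lists were chosen with earlier results of these data known. Genes named are all members, the other clock genes past a test (except 1, which is not reported here), up to 3 called cyclic AMP genes, and the 5 genes most and least alike to *Dbp* and *Arntl*. Gene positions and exon lengths came from GENCODE M21.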

Additional observations from a re-analysis of the deposited data

Results flagged for a closer look

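In 1 of 40 groups of 4 libraries (10 genes in 4 groups) the extreme value stood apart from the others by more than the 95% critical value of Dixon's test allows. This was *Cry1* in sgRNA control cells, where replicate 4 had 14.2 CPM and the others 17.1 to 17.3 CPM. Chance alone flags about 1 group in 20. No member's isoproterenol effect differed between plasmids by the interaction test.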

How the results depend on the processing

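The log2 differences of the 10 clock genes for isoproterenol and for sgRNA, each averaged over the other factor, kept their direction under these alternatives: RLE size factors, no ribosomal RNA gene, no filter, DESeq2 and the replicate block. Omission of a library or number turned estimates near 0, none of them past a test. For isoproterenol *Per2* ranged from -0.0616 (without replicate 5) to 0.245 and *Arntl* from -0.0463 to 0.0794, -0.0463 without replicate 6 and -0.0054 without the empty vector isoproterenol library of replicate 6. For sgRNA *Nr1d1* ranged from -0.0329 (without replicate 3) to 0.362, *Arntl* from -0.104 to 0.0331 and *Per3* from -0.235 to 0.0717 (both turned without replicate 5), and *Cry2* from -0.00464 (without the empty vector isoproterenol library of replicate 4) to 0.127.

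Counts of members were small and moved easily. For isoproterenol, members past an adjusted p of 0.05 numbered 1, and 0 without the filter, where *Cry2* had an adjusted p of 0.141, 0 to 1 under omissions, and 3 with the replicate block, which became 1 to 3 under omissions. With both criteria there were 0, and 0 to 1 under omissions in the fit without the block, where *Cry2* passed without replicate 6 (log2 difference -0.54). In the blocked fit *Cry2* passed both criteria without replicate 5 (-0.509) or replicate 6 (-0.552). It did so too without the control (-0.501) or isoproterenol (-0.509) library of replicate 6 of the empty vector cells. The replicate block gave 1 member for isoproterenol in sgRNA cells. Between numbers 4 members passed the adjusted p, 2 without the filter (*Clock* and *Nr1d2* were lost) and 2 to 4 under omissions, and 2 passed both criteria, 1 to 2 under omissions.

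Over all genes, isoproterenol called 349 genes, 749 with the replicate block and 120 to 465 under omissions. In empty vector cells it called 109, 223 with DESeq2, 588 with the replicate block and 35 to 181 under omissions. In sgRNA cells it called 92, 177 with DESeq2, 513 with the replicate block and 29 to 98 under omissions. The sgRNA effect called 0 genes, 10 without the filter, 10 with DESeq2, 35 with the replicate block and 0 to 2 under omissions. Within control cells it called 1 without the filter, 3 with DESeq2 and 4 with the replicate block, and within stimulated cells 4, 4 and 16. Differences between numbers called 4174 genes, and 2098 (without replicate 6) to 4402 under omissions. The isoproterenol effect by number called 1 gene, 454 without the filter, 24 with DESeq2 and 0 to 3 under omissions. The causes were not tested. Depth limits the low members, since *Per3*, *Dbp*, *Cry2* and *Per2* had 31 to 138 counts per library.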
